A study of Mus musculus with 20 samples.

Results

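Repeated inhalation of house dust mite was compared with saline in whole lungs of mice labelled as lacking Alox15, by RNA sequencing of 10 of the 20 libraries of the study. The members are the 5 libraries titled knockout with dust mite (KO_HDM) and the 5 titled knockout with saline (KO_saline), each labelled as a biological replicate. Both groups are female C57Bl6 mice with the genotype label ALOX15 KO, so the label is common to treated and control animals. Neither the allele, nor a Cre or promoter, nor the age of the mice is given in the sources used here. KO_HDM mice received house dust mite (HDM) extract into the nose daily for 14 days and KO_saline mice received saline. Wild-type mice of the same strain and sex under both treatments (WT_HDM and WT_saline, 5 libraries each) are used in the check of Alox15 and to test whether the response differed between genotype labels, and they enter the estimate of the spread that all 20 libraries share. The deposited table lists 24054 genes, of which 16193 had enough counts to be tested.

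House dust mite extract carries proteases, chitin and bacterial products that injure the airway epithelium and cause allergic inflammation when inhaled repeatedly. In the classic course the epithelium releases alarmins, type 2 lymphocytes make interleukins 4, 5 and 13, airway secretory cells turn into mucous cells, macrophages take on an alternatively activated state, and eosinophils and antibody-secreting cells gather. Alox15, the gene named by the genotype label, encodes the lipoxygenase that adds oxygen to polyunsaturated fatty acids and is known for its induction by interleukins 4 and 13.

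The genotype label was checked against the gene first. Alox15 measured 40.8, 39.1, 44.7, 38.4 and 41.2 CPM (expected counts per 1000000 of the library's TMM-scaled size) in KO_saline libraries 1 to 5 and 39.4, 43.4, 42.2, 45.5 and 34.95 CPM in KO_HDM libraries 1 to 5. Its level was 40.8 ± 2.45 CPM (mean ± SD, n = 5) under saline and 41.1 ± 4.07 CPM under HDM. The groups overlapped, with a log2 fold change of 0.01 ± 0.404 (± SE), an edgeR quasi-likelihood adjusted p of 0.987 and, by exact two-sided permutation, p = 0.952, where 5 against 5 libraries cannot go below 0.00794. Wild-type lungs held 0.825 to 11.1 CPM in WT_saline and 7.92 to 29.8 CPM in WT_HDM, so Alox15 was not lower in the libraries labelled knockout than in those labelled wild type. Gene-level counts do not tell which exons the reads cover. The genotype is therefore written as a label throughout, and says nothing about loss of the protein.

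Total expected counts were 21120878 to 23305673 in KO_saline and 17840138 to 21082770 in KO_HDM. Markers that define lung were found in all 10 libraries (Sftpc of alveolar type 2 cells, Ager of alveolar type 1 cells, Scgb1a1 of club cells, Cldn5 of endothelium and Foxj1 of ciliated cells). Markers of other tissues were uneven. KO_HDM 5 stood apart by fat and heart: its 14 adipose markers summed to 3076 CPM against 122 to 213 CPM in the other KO_HDM libraries and 185 to 709 CPM in KO_saline, and its heart muscle markers to 3225 CPM, where no other knockout-labelled library passed 1005 CPM. KO_saline 4 stood apart by lymph node: markers of thymus and lymph node summed to 423 CPM against 37.3 to 66.2 CPM in the other KO_saline libraries. Most of that sum was Glycam1, a lymph node gene (283 CPM, against at most 0.137 CPM in the others). The thymus genes Rag1 (0.130 CPM) and Dntt (0.435 CPM) were not highest in KO_saline 4. Liver-made genes were present in every KO_HDM library, with Alb at 20.1, 56.2, 76.3, 63.3 and 53.9 CPM against 0.622, 0.845, 1.1, 0.652 and 0.684 CPM in KO_saline, and 14 of 16 such genes tested were called higher. Red blood cell markers summed to 9777 to 20199 CPM in KO_saline and 3008 to 5082 CPM in KO_HDM, and 13 of 15 were called lower. No adipose or skeletal muscle marker was called in either direction, but skeletal muscle markers were uneven too. They summed to 137 CPM in KO_saline 4 against 6.16 to 58.6 CPM in the other KO_saline libraries. In KO_HDM 5 they summed to 292 CPM against 7.22 to 13.4 CPM in the other KO_HDM libraries. The part of these tissues in the results was not tested, except that values without single libraries are given where they change a call or move a called value by more than 1.5-fold.

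**Figure D1:**
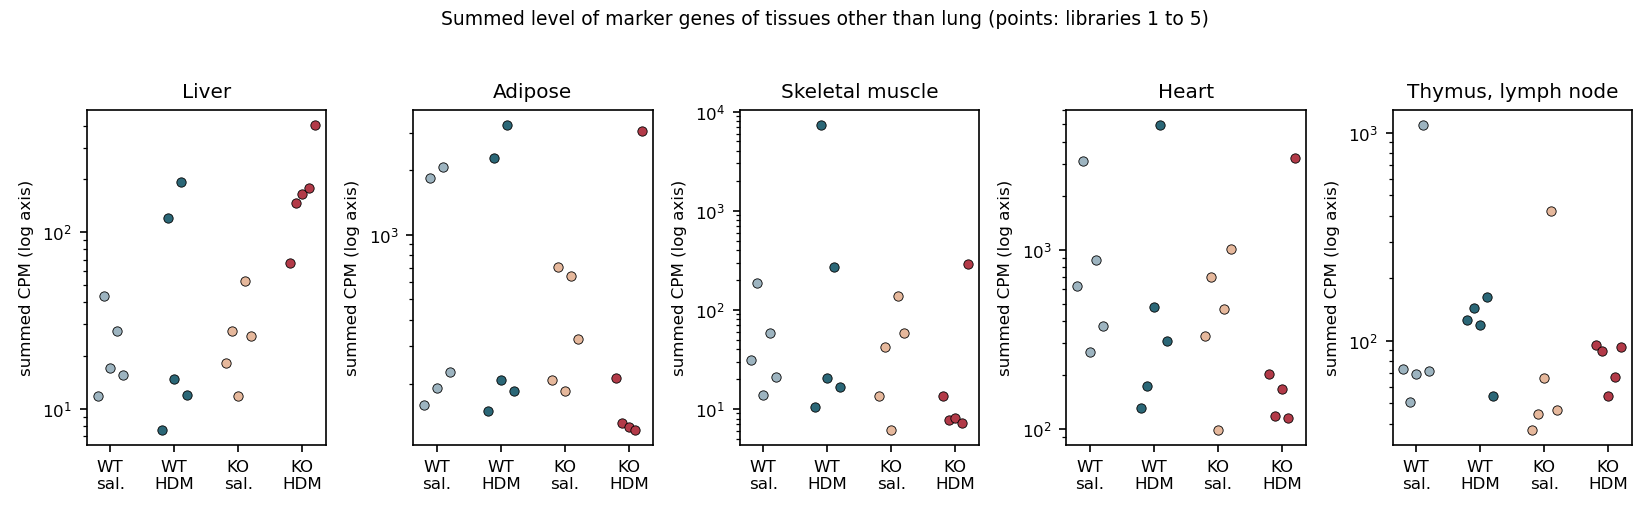
Summed CPM (log axis) of marker genes of liver, adipose tissue, skeletal muscle, heart muscle, and thymus with lymph node in each library, by genotype label and treatment. Each point is a library; KO_HDM 5 lies highest of the knockout-labelled libraries for adipose (3076 CPM) and heart (3225 CPM), and KO_saline 4 lies highest of them for thymus and lymph node (423 CPM).

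HDM was followed by a change across much of the transcriptome. At an adjusted p under 0.05, 8406 of the 16193 genes tested (51.9%) were called, 4246 higher (26.2%) and 4160 lower (25.7%) in KO_HDM, and the words rose and fell are kept for these calls. Rises were larger than falls: 1655 genes (10.2%) were called and at least 2-fold higher, and 711 (4.39%) called and at least 2-fold lower. The 5 and 5 libraries did not overlap for 7112 genes (43.9%), and the median log2 fold change over all genes tested was 0.02. These shares are the background for every list that follows. In whole lung, fewer cells of a type and less RNA per cell cannot be told apart, so a fall or rise of a marker is a change in its share of lung RNA.

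**Figure D2:**
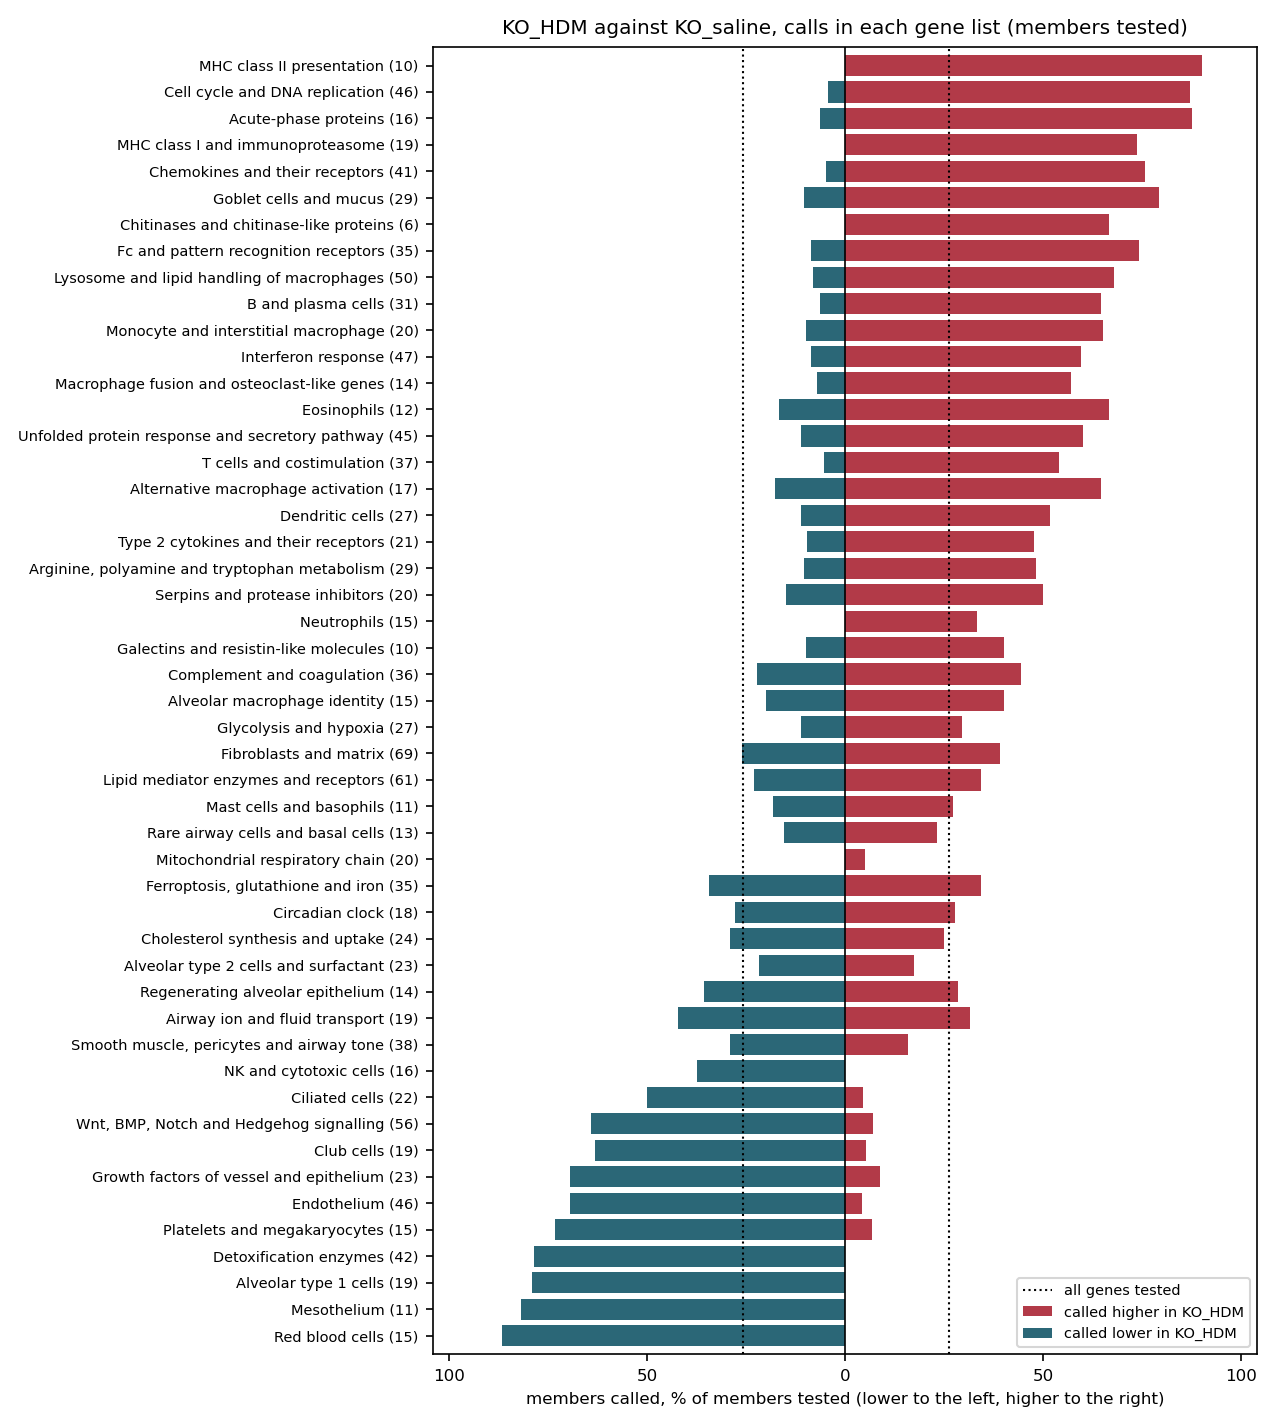
Share of tested members called higher (right, red) and lower (left, blue) in KO_HDM against KO_saline for each gene list, markers of other tissues left out, with the number of members tested in parentheses and the lists in order of the share higher minus the share lower. Dotted lines give the shares over all genes tested, 26.2% higher and 25.7% lower; MHC class II, cell cycle and acute-phase genes stand at the top, and red blood cell, mesothelial and alveolar type 1 genes at the bottom.

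Mucous cell genes rose steeply. All 9 tested genes for mucins and their granule cargo rose, with a median log2 fold change of 5.71 (5.59 with Tff1, which had no count under saline, at its bound), as did 10 of 13 genes for mucin glycosylation and secretion. Clca3 (the older symbol of the gene now called Clca1), a secreted protein of mucous cells, measured 3.88, 3.099, 1.23, 1.69 and 5.697 CPM in KO_saline and 2649.6, 1863, 1587, 1468 and 4510.0 CPM in KO_HDM. The lowest KO_HDM library lay far above the highest KO_saline library, and the log2 fold change was 9.598 ± 0.92 (adjusted p = 2.69e-07). Muc5ac, the inducible gel-forming airway mucin, measured 5.12, 6.15, 4.399, 7.78 and 8.07 CPM in KO_saline and 439, 379, 243, 329 and 1303 CPM in KO_HDM, where KO_HDM 5 held the most. Its log2 fold change was 6.42 ± 0.59, or 5.78 without KO_HDM 5. Fcgbp, which binds mucins in the gel, measured 5.65, 6.996, 6.33, 9.3 and 9.75 CPM under saline and 459, 286, 245, 256 and 744 CPM under HDM. Again no library of one group reached the other (log2 fold change 5.71 ± 0.62, adjusted p = 1.06e-06).

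The regulators of the mucous programme moved less than its products. Foxa3, a transcription factor that drives mucous cell genes, rose from 0.391 ± 0.161 to 3.13 ± 1.97 CPM (log2 fold change 2.98), and Spdef, the factor required for goblet cell differentiation, from 1.46 ± 0.429 to 3.59 ± 0.908 CPM (1.297). Foxa2, which restrains mucous differentiation, fell from 42.6 ± 4.98 to 26.6 ± 4.55 CPM (-0.68). Agr2, the disulfide isomerase that folds mucins, measured 0.335, 0.329, 0.572, 0.695 and 1.504 CPM in KO_saline and 11.9, 10.2, 7.49, 8.16 and 32.9 CPM in KO_HDM, with a log2 fold change of 4.34 ± 0.75. The trefoil peptide gene Tff1 had no count in any KO_saline library and was at least 48.2-fold higher in KO_HDM, against a floor of 3 counts over the KO_saline group that covers counting error only. Without KO_HDM 5, which held the most, the bound for Tff1 was 30.1-fold. It measured 1.49, 0.731, 0.632, 0.441 and 3.39 CPM in the KO_HDM libraries. Itln1 (intelectin), a lectin of mucous cells, rose from 0.146 ± 0.104 to 32.5 ± 24.4 CPM (7.74). Tff2, the trefoil peptide more often tied to allergic lung, rose from 3.25 ± 1.49 to 43.04 ± 20.6 CPM (3.72).

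Transport of ions and water across the airway surface moved in both directions, with 6 genes higher and 8 lower of 19. Slc26a4 (pendrin), an anion exchanger of inflamed airways, measured 7.99, 7.09, 16.9, 8.52 and 13.1 CPM under saline and 114, 171, 193, 155 and 226 CPM under HDM (log2 fold change 4.002 ± 0.396). The chloride channel gene Cftr also rose, from 26.4 ± 4.64 to 54.3 ± 11.8 CPM (1.04). All 3 subunit genes of the epithelial sodium channel fell, with log2 fold changes of -0.93 for Scnn1a, -1.68 for Scnn1b and -1.22 for Scnn1g.

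**Figure D3:**
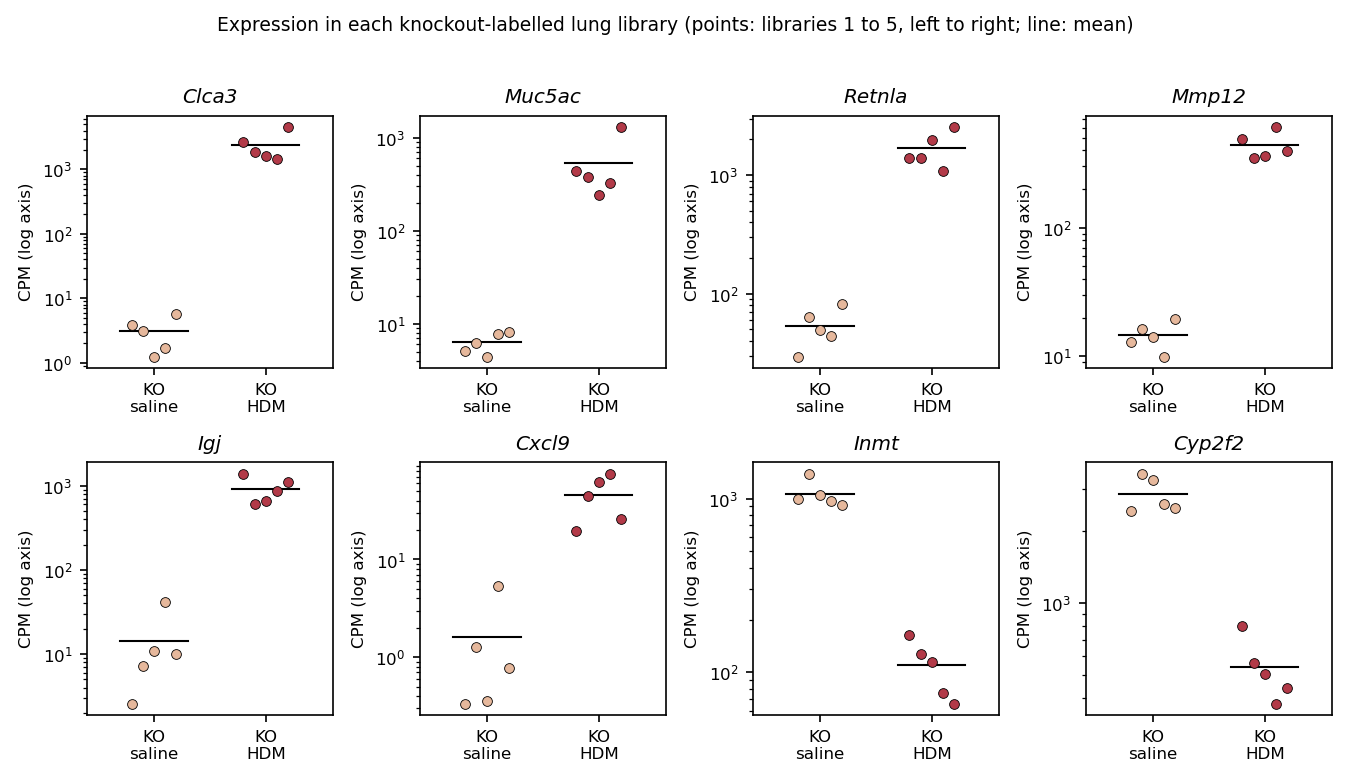
Level of 8 genes in each knockout-labelled library, in CPM on a log axis (points, libraries 1 to 5; line, mean). For Clca3, Muc5ac, Retnla, Mmp12, Igj and Cxcl9 every KO_HDM library lies above every KO_saline library, and for Inmt and Cyp2f2 every one lies below.

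Alternatively activated macrophages are the macrophage state that interleukins 4 and 13 induce through STAT6, and 11 of their 17 tested genes rose, with a median log2 fold change of 1.77. Retnla, a secreted resistin-like protein of this state, measured 29.3, 63.2, 49.7, 43.8 and 82.03 CPM in KO_saline and 1387, 1402, 1983, 1083 and 2538 CPM in KO_HDM. The groups lay far apart (log2 fold change 4.97 ± 0.41, adjusted p = 3.14e-08). Arg1, the arginase that competes with nitric oxide synthase for arginine, measured 1.77, 1.83, 1.01, 2.26 and 1.64 CPM under saline and 25.02, 22.2, 42.8, 71.5 and 57.9 CPM under HDM, a log2 fold change of 4.68 ± 0.49. Pdcd1lg2, the PD-1 ligand of type 2 myeloid cells, rose from 2.02 ± 0.508 to 20.5 ± 5.83 CPM (3.34), and Clec7a, the dectin that binds fungal glucans, from 41.4 ± 3.32 to 339.5 ± 51.2 CPM (3.04). Chil3, which encodes a chitinase-like protein and may share reads with Chil4, rose from 415 ± 119.6 to 4723 ± 1249.7 CPM (3.51), and Chil4 from 0.718 ± 0.679 to 510.0 ± 434 CPM (9.48, or 10.29 without KO_saline 1). The 3 members called lower, Flt1 (-1.09), Tgm2 (-0.67) and Cdh1 (-0.48), are genes that endothelium or epithelium of the lung also expresses.

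RefSeq promoter windows (250 bases before the gene start, GRCm38.p6) were found for 906 of the 1231 list members tested and for 11923 of all genes tested. The letters of a STAT6-type site, TTCNNNNGAA, occur on either strand in 675 of those 11923 windows (5.66%) and in 3 of the 10 windows of the alternative activation list, those of Clec7a, Pdcd1lg2 and Retnla. A match of letters is not a measured binding site. The stretches that hold the match in Retnla (chr16:48842359-48842508, plus strand) and Pdcd1lg2 (chr19:29410717-29410866, plus strand) are shown because both genes rose without overlap between the groups. Capitals mark the match.
Retnla: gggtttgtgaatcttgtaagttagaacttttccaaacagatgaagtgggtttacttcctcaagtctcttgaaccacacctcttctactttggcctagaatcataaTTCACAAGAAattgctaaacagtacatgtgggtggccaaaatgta
Pdcd1lg2: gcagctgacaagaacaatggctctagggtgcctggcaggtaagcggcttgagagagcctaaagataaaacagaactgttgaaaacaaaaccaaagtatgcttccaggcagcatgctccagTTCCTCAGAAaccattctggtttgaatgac

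Genes of fused macrophages and of their lysosomes rose as well. Of 14 genes of fusion and osteoclast-like state 8 rose and 1 fell. The rises included Dcstamp, a membrane protein needed for fusion (0.376 ± 0.176 to 6.24 ± 2.95 CPM, log2 fold change 4.03), Trem2, a lipid-sensing receptor (3.05), and Ctsk, a collagen-degrading cathepsin (2.15). All 9 cathepsins and lysosomal proteases rose. Ctss, the cathepsin that trims the class II invariant chain, measured 128, 169.6, 193, 183 and 177 CPM in KO_saline and 1446, 1830.3, 1758, 2212 and 1655 CPM in KO_HDM, which did not overlap (log2 fold change 3.39 ± 0.17). Gpnmb, a glycoprotein of lipid-laden macrophages, rose by 2.87 and Cd68, a lysosomal membrane marker, by 1.799 on the log2 scale. Of the 12 subunits of the lysosomal proton pump 7 rose, with a median of 0.35 over the subunits.

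Scavenger receptors did not move as 1 group. Msr1, the class A receptor for modified lipoprotein, rose from 7.94 ± 2.48 to 52.5 ± 16.4 CPM (log2 fold change 2.72), and Olr1, the lectin-like receptor for oxidised lipoprotein, from 14.3 ± 1.73 to 80.6 ± 11.2 CPM (2.499). Marco, the collagenous receptor of resident alveolar macrophages, measured 24.5, 37.3, 42.98, 66.1 and 31.3 CPM in KO_saline and 5.07, 4.09, 7.39, 7.33 and 5.17 CPM in KO_HDM. It fell without overlap although its KO_saline levels were spread widely (log2 fold change -2.798 ± 0.73). Of the 15 tested genes of resident alveolar macrophages 6 rose and 3 fell, and 1 fell without KO_saline 2, 3, 4 or 5 or KO_HDM 4 or 5. Itgax, the integrin CD11c that dendritic cells share, rose by 2.41, and Mrc1, the mannose receptor, by 1.5. Genes of monocytes and interstitial macrophages rose for 13 of 20, led by Ms4a7 (2.5 ± 0.654 to 35.5 ± 7.99 CPM, 3.82), and fell for 2, both at least 2-fold.

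Chemokine genes rose broadly. Of 41 tested ligands and receptors 31 rose and 2 fell, with a median log2 fold change of 1.97. Ccl8, a ligand of CCR8 in the mouse and an attractant of type 2 T cells, measured 0.383, 0.704, 1.36, 0.522 and 0.547 CPM under saline and 43.9, 50.5, 53.5, 58.03 and 62.6 CPM under HDM. No library of one group reached the other, and its log2 fold change was 6.23 ± 0.54 (adjusted p = 9.46e-08). Ccl11 (eotaxin 1), the attractant of eosinophils, rose from 1.92 ± 0.381 to 9.199 ± 5.09 CPM (2.26), and Ccl17, a ligand of CCR4, from 4.54 ± 1.56 to 13.3 ± 4.04 CPM (1.55). All 7 tested monocyte attractants rose, among them Ccl9 (2.8), Ccl6 (2.34) and Ccl3 (3.04). Of the neutrophil attractants, 4 of 5 rose, with Cxcl3 at 4.87 and Cxcl5 at 3.94.

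Attractants of type 1 T cells rose beside those of type 2 cells. Cxcl9, which interferon gamma induces and CXCR3 reads, measured 0.335, 1.27, 0.352, 5.302 and 0.775 CPM in KO_saline and 19.6, 44.6, 62.6, 75.3 and 26.1 CPM in KO_HDM. KO_saline 4, the library with markers of lymph node, held the most of its group. The log2 fold change was 4.81 ± 0.82, and 6.09 without KO_saline 4. Cxcl10, which shares that receptor, rose from 1.59 ± 0.497 to 11.8 ± 6.21 CPM (2.89). Ccl20, the ligand of CCR6, rose by 4.04, and its receptor gene Ccr6 by 2.297, or by 2.91 without KO_saline 4. Cxcl14 (-1.57) and Cx3cl1 (-0.905), made by epithelium and endothelium, were the 2 chemokines that fell.

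Type 2 cytokine transcripts themselves were scarce at this depth. Il13 stayed below the limit for testing, with 0 counts in each KO_saline library and 4, 7, 12, 1 and 7 counts in the KO_HDM libraries, at least 11.8-fold higher against the floor of 3 counts. Il4 had 0, 2, 3, 3 and 2 counts under saline and 3, 1, 1, 1 and 3 under HDM, which does not separate the groups. The alarmin gene Il33 rose from 93.4 ± 14.03 to 212 ± 36.7 CPM (log2 fold change 1.18, adjusted p = 1.47e-05). Of the 11 receptor chains 7 rose, led by the shared beta chains Csf2rb2 (2.07) and Csf2rb (1.82). Il13ra1, the chain that binds interleukin 13, rose from 61.2 ± 9.79 to 103 ± 8.09 CPM (0.76). Gata3, the transcription factor of type 2 T cells that other lung cells also express, fell from 21.2 ± 1.05 to 14.1 ± 2.16 CPM (-0.596), and Stat6 from 160.1 ± 2.38 to 133 ± 13.1 CPM (-0.27).

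Eosinophil genes rose for 8 of 12 tested and fell for 2. Rnase2a, an eosinophil-associated ribonuclease whose reads may be shared with its family, measured 0.144, 0.141, 0.04399, 0.0435 and 0.228 CPM in KO_saline and 15.7, 11.9, 13.3, 11.7 and 30.8 CPM in KO_HDM (log2 fold change 7.06 ± 0.51). Ccr3, the eotaxin receptor, measured 0.479, 0.141, 0.308, 0.348 and 0.319 CPM in KO_saline and 2.72, 1.27, 0.486, 1.49 and 1.99 CPM in KO_HDM, a rise of 2.29. Epx, the eosinophil peroxidase made mostly in marrow precursors, had 3 counts over the KO_saline group and 5 over the KO_HDM group and was not tested. Of 11 mast cell and basophil genes 3 rose and 2 fell, near or below the background. Mcpt1, a mucosal mast cell protease with close homologues, rose from 0.0463 ± 0.0339 to 1.68 ± 1.29 CPM (5.02). Hdc, the histamine-making enzyme, fell from 73.6 ± 4.18 to 36.3 ± 6.33 CPM (-1.02). Neutrophil genes rose for 5 of 15, near the background of 26.2%, and for 3 without KO_saline 3. They included Il1r2, the decoy receptor for interleukin 1 (2.099), and Lcn2, an iron-trapping lipocalin that injured epithelium also makes (2.69).

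Receptors that read antibody, microbes and complement rose together. Of the 35 Fc and pattern recognition receptors tested 26 rose and 3 fell, with a median log2 fold change of 1.35. Clec4n (dectin-2), a lectin that binds fungal and mite glycans, measured 5.74, 10.99, 12.8, 8.91 and 11.1 CPM under saline and 106, 121, 94.2, 128 and 66.6 CPM under HDM. The groups did not overlap (log2 fold change 3.38 ± 0.29). Fcgr3, an activating receptor for immunoglobulin G, rose from 28.1 ± 4.77 to 128 ± 28.8 CPM (2.19). Tlr2, the receptor for bacterial lipoproteins, rose by 1.59 and Cd14, the cofactor for endotoxin, by 1.52. Tlr5, the flagellin receptor, was the member of its group that fell (-1.04). Pigr, which carries immunoglobulin A across the epithelium, measured 137, 195, 167, 169 and 161 CPM in KO_saline and 700.2, 1027, 799, 901 and 918 CPM in KO_HDM, again with no overlap (log2 fold change 2.39 ± 0.23).

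The 3 chains of C1q, which start the classical complement pathway and are made by macrophages, rose nearly in step: C1qa by 2.404, C1qb by 2.48 and C1qc by 2.42 on the log2 scale. Cfb, the factor B protease of the alternative pathway, rose from 72.4 ± 16.5 to 257 ± 64.1 CPM (1.83). Coagulation genes split. F7 (2.49) and F10 (2.61), clotting proteases, rose, whereas Thbd, the thrombomodulin of endothelium (-0.94), and F3, tissue factor (-0.59), fell. Liver-made genes were present in every KO_HDM library, and the source of the F7 and F10 transcripts was not tested.

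Antigen presentation rose on both arms. Class II genes rose for 9 of 10, with H2-Aa going from 383 ± 53.2 to 933 ± 118 CPM (log2 fold change 1.28) and their master activator Ciita from 40.3 ± 7.01 to 105 ± 18.5 CPM (1.39). Class I and immunoproteasome genes rose for 14 of 19. B2m, the light chain of class I, measured 711, 763, 844, 842 and 756 CPM in KO_saline and 1253, 1798, 1819, 2159 and 1294 CPM in KO_HDM without overlap (1.09 ± 0.205). Nlrc5, the activator of class I genes, rose by 1.43 and Tap1, the peptide transporter, by 1.06. Dendritic cell genes rose for 14 of 27 and fell for 3. The rises included Xcr1, the receptor of cross-presenting dendritic cells (7.499 ± 1.89 to 22.96 ± 3.65 CPM, 1.61), and the costimulatory ligands Cd80 (1.69) and Cd86 (1.58).

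Genes induced by interferon gamma rose for 13 of 15 tested, and antiviral effectors for 8 of 19 with 3 lower. Tgtp1, an interferon-induced GTPase of intracellular defence with a near-identical neighbour, measured 15.3, 14.6, 18.03, 22.8 and 13.3 CPM under saline and 31.9, 73.6, 57.4, 111 and 50.5 CPM under HDM. Every KO_HDM library lay above every KO_saline library (log2 fold change 1.95 ± 0.34, adjusted p = 1.21e-04). Irgm1, Igtp and Gbp3, GTPases of the same defence, rose by 0.81, 0.85 and 1.04 on the log2 scale. Rsad2 (viperin, -0.84), Isg20 (-0.72) and Ifitm3 (-0.67), all antiviral, fell. Ifng itself had 7, 4, 5, 8 and 4 counts in KO_saline and 8, 21, 18, 24 and 13 counts in KO_HDM, too few to be tested.

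The core of the interferon-stimulated response element, searched as GAAANNGAAA on both strands, occurs in 392 of the 11923 promoter windows (3.29%), in 18 of 34 windows of the interferon list (52.9%) and in 9 of 11 of its interferon gamma group (81.8%). In the class I list it occurs in 3 of 16 windows, that of B2m among them. Of the 18 interferon genes with the motif 13 rose, and Rsad2, which also carries it, fell. Over all genes tested, 132 of the 392 with the motif rose. The stretches of windows that follow were chosen because these genes rose together. They are Tgtp1 (chr11:48992294-48992443, minus strand), Gbp3 (chr3:142559876-142560025, plus strand), Irgm1 (chr11:48871421-48871570, minus strand), Igtp (chr11:58199402-58199551, plus strand) and B2m (chr2:122147437-122147586, plus strand), each printed on the strand of its gene with the matches, overlapping ones joined, in capitals.
Tgtp1: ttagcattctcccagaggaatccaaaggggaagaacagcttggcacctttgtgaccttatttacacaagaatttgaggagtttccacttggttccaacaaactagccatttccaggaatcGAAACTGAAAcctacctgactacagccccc
Gbp3: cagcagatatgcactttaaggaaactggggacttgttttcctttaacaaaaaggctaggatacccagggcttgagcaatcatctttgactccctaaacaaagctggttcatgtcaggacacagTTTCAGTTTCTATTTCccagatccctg
Irgm1: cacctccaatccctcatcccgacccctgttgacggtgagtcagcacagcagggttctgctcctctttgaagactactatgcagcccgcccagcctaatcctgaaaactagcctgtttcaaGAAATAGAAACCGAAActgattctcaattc
Igtp: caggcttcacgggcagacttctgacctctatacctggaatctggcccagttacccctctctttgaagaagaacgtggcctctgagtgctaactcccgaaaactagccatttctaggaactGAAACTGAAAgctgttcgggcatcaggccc
B2m: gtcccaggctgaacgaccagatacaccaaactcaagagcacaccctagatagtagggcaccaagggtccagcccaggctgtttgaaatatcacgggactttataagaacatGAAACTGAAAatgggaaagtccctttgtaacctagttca
Tgtp1, Irgm1, Igtp and B2m carry the motif in the direction of the gene, and Gbp3 carries it on the other strand.

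T cell genes rose mainly through costimulation and checkpoint receptors, of which 11 of 14 rose, against 2 of 13 genes of T cell identity. Tigit, an inhibitory receptor of activated T cells, measured 1.67, 1.03, 0.748, 1.65 and 0.775 CPM in KO_saline and 10.5, 8.52, 5.64, 9.75 and 9.96 CPM in KO_HDM (log2 fold change 2.91 ± 0.296). Icos, the costimulator of follicular and type 2 cells, rose from 3.46 ± 2.31 to 20.8 ± 7.19 CPM (2.58), and Foxp3, the factor of regulatory T cells, from 1.62 ± 1.11 to 5.98 ± 2.01 CPM (1.88). Il21, a cytokine of follicular helper cells, rose by 5.22 and Ctla4, a checkpoint receptor, by 3.52, or by 6.06 and 4.14 without KO_saline 4. The CD3 chain gene Cd3e was not called, with 7.896, 8.73, 6.86, 20.5 and 7.702 CPM under saline and 20.3, 22.8, 16.8, 24.2 and 13.2 CPM under HDM. KO_saline 4 was the highest of its group for Cd3e, whose log2 fold change was 0.91 (adjusted p = 0.141) and 1.36 without KO_saline 4 (adjusted p = 0.0403). It was also called with the replicate block (1.06, adjusted p = 0.0216), with only the 10 libraries compared (0.91, adjusted p = 0.026) and without the 5 libraries of the study with Adipoq, a fat marker, at 50 CPM or more (1.01, adjusted p = 0.00638). Of those 5 libraries only KO_HDM 5 is knockout-labelled. No natural killer cell gene rose and 6 of 16 fell, among them Ncr1, an activating receptor (-1.13), Gzma, a granule protease (-1.13), and Prf1, perforin (-0.94).

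Plasma cell genes rose for 12 of 14 and fell for 1, with a median log2 fold change of 2.06. Igj, the joining chain of secreted antibody, measured 2.58, 7.18, 10.8, 41.1 and 10.03 CPM in KO_saline and 1389, 616, 652, 859 and 1111 CPM in KO_HDM. KO_saline 4 held most of the saline signal, and the log2 fold change was 6.01 ± 0.77, or 6.96 without it. Mzb1, an antibody-folding chaperone of plasma cells, measured 1.24, 1.41, 2.42, 5.91 and 2.01 CPM under saline and 131, 46.1, 49.5, 80.3 and 93.0 CPM under HDM (4.93 ± 0.59; 5.53 without KO_saline 4). Derl3 (3.16), Irf4 (2.81) and Pou2af1 (2.698), which serve antibody secretion and its transcription, also rose. Genes of B cells as such rose for 5 of 11, for 8 without KO_saline 4 and for 3 without KO_HDM 1.

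Endoplasmic reticulum chaperones rose for 13 of 16, and genes of export from it for 10 of 16, mostly by less than 2-fold. Hsp90b1, the HSP90 of the reticulum, measured 713, 695, 783, 777 and 765 CPM in KO_saline and 2042, 1203, 1367, 1562 and 1594 CPM in KO_HDM without overlap (log2 fold change 1.06 ± 0.12, adjusted p = 1.05e-06). Sdf2l1 (1.78), Pdia4 (1.13), Creld2 (0.89) and Pdia6 (0.46), all aids of folding in the reticulum, rose too. Xbp1, the transcription factor of the response and of secretory cells, rose from 163 ± 11.2 to 257 ± 39.02 CPM (0.66). Ddit3 (CHOP), the factor of prolonged stress, measured 10.4, 11.1, 10.4, 10.95 and 9.71 CPM under saline and 7.84, 8.47, 9.92, 9.699 and 7.54 CPM under HDM, and its small fall (-0.27, adjusted p = 0.0305) lost its call when any of KO_saline 1 to 5, KO_HDM 2 or KO_HDM 5 was left out (adjusted p 0.0567 to 0.123). The list had 5 members called lower, and 2 or 3 without KO_saline 2, KO_saline 3, KO_saline 4, KO_HDM 2 or KO_HDM 5.

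The endoplasmic reticulum stress element, searched as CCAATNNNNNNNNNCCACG on both strands, occurs in 18 of the 11923 promoter windows (0.151%), and 9 of those 18 genes rose. It occurs in 7 of the 14 chaperone windows (50%), those of Calr, Canx, Creld2, Dnajc3, Hsp90b1, Hspa5 and Pdia6, of which all but Dnajc3 (0.14, adjusted p = 0.111; 0.0359 without KO_saline 3 and 0.0431 without KO_saline 5) rose. Shown are stretches of the windows of Hsp90b1 (chr10:86705513-86705662, minus strand), Creld2 (chr15:88819409-88819558, plus strand) and Pdia6 (chr12:17266380-17266529, plus strand), with the matches in capitals.
Hsp90b1: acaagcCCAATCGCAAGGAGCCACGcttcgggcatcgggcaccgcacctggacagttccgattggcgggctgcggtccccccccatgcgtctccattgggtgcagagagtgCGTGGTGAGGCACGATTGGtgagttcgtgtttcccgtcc
Creld2: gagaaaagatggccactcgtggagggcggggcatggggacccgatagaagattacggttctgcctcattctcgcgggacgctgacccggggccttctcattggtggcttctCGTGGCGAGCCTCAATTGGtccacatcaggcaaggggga
Pdia6: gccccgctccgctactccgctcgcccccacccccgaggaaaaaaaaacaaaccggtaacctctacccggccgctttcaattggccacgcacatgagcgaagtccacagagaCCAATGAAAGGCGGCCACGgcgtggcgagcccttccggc
Hsp90b1 carries the element once in each direction, Creld2 on the other strand and Pdia6 on the strand of the gene.

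Proliferation genes rose almost throughout, for all 16 tested mitotic genes and all 17 replication genes. Top2a, the topoisomerase of dividing cells, measured 14.8, 18.1, 20.4, 28.4 and 20.6 CPM in KO_saline and 179, 144, 162, 184 and 135 CPM in KO_HDM. The groups did not overlap, with a log2 fold change of 2.97 ± 0.297 (adjusted p = 3.38e-07). Ccnb1, the cyclin of mitotic entry, rose by 2.93 and Rrm2, which makes deoxynucleotides, by 2.65. Cdkn1c, a cell cycle inhibitor (p57), fell from 26.4 ± 4.12 to 11.1 ± 1.15 CPM (-1.24).

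Acute-phase proteins rose for 14 of 16. Saa3, the serum amyloid A of macrophages and epithelium, measured 2.54, 8.64, 4.31, 2.48 and 3.83 CPM under saline and 87.1, 166, 169, 288 and 128 CPM under HDM, a log2 fold change of 5.27 ± 0.54. Hp (haptoglobin), which alveolar epithelium expresses, fell from 737 ± 106 to 343 ± 62.3 CPM (-1.103). Some genes of this list are made chiefly in liver, and they moved with Alb and the other liver-made genes. Fgb, the fibrinogen beta chain, had no count in any KO_saline library and was at least 86.9-fold higher in KO_HDM. Ttr (transthyretin) and the urinary protein gene Mup20, of a multigene family, also had no count under saline. Ttr was at least 119-fold higher and Mup20 at least 387-fold. Among protease inhibitors, Slpi, which guards mucosal surfaces, rose from 23.1 ± 10.9 to 244 ± 90.6 CPM (3.401), and Wfdc17, a related macrophage protein, from 3.43 ± 1.43 to 85.0 ± 16.5 CPM (4.63).

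Genes of collagens and their crosslinking rose as alveolar fibroblast genes fell. Of 18 collagens and crosslinking enzymes 11 rose, whereas 9 of 17 fibroblast markers fell. Col3a1, a fibrillar collagen, measured 655, 362, 694, 442 and 674 CPM in KO_saline and 1415, 2074, 2303, 2210.3 and 1911 CPM in KO_HDM (log2 fold change 1.81 ± 0.22). Of 17 matricellular and elastic genes 6 rose and 4 fell, nearer the background, with a median log2 fold change of 0.06. Tnc (tenascin C, 2.32), Eln (elastin, 2.06) and Fn1 (fibronectin, 1.77) rose. Mmp12, the macrophage elastase, measured 12.97, 16.3, 14.3, 9.91 and 19.6 CPM under saline and 486, 351, 359, 605 and 397 CPM under HDM, and Timp1, an inhibitor of metalloproteinases, rose from 3.29 ± 0.883 to 30.7 ± 14.4 CPM (3.21). Mmp12 rose without overlap by 4.91 ± 0.3. Tcf21, a transcription factor of lipid-storing fibroblasts, fell from 59.7 ± 8.95 to 22.3 ± 6.94 CPM (-1.42), and Pdgfra, their growth factor receptor, from 503 ± 39.5 to 212 ± 24.5 CPM (-1.25).

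Inmt, a methyltransferase abundant in lung fibroblasts, had the largest fall after Cyp1a1 among genes at a mean log2 CPM of 1 or more without overlap. It measured 991, 1388, 1047, 964 and 918 CPM in KO_saline and 165, 128, 114, 75.7 and 66.1 CPM in KO_HDM, a log2 fold change of -3.27 ± 0.33 (adjusted p = 2.83e-07). Other steep falls without overlap were Igfbp6, a binder of insulin-like growth factor (150.1 ± 26.4 to 28.1 ± 4.84 CPM, -2.42), Fgfbp1, a carrier of fibroblast growth factors (-2.72), and Galnt15, an enzyme that starts O-linked glycans (-2.504). Bex2 (-3.03), Bcan (-2.902), Gdpd2 (-2.66), Ankrd63 (-2.57), Faim2 (-2.53) and Chst4 (-2.37) were also among the 15 largest falls at a mean log2 CPM of 1 or more, as was Pon1, a paraoxonase (63.1 ± 11.5 to 7.16 ± 1.72 CPM, -3.14). Gp2 (5.001, or 4.38 without KO_HDM 5), a receptor for bacterial fimbriae, was among the 15 largest rises.

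Club cell and detoxification genes fell. No tested gene of 42 detoxification enzymes rose and 33 fell, with a median log2 fold change of -1.18; of club cell genes 12 of 19 fell. Cyp2f2, the cytochrome P450 that marks club cells, measured 2414, 3461, 3269, 2601 and 2488 CPM in KO_saline and 798, 560.3, 505, 379.6 and 442 CPM in KO_HDM. Every KO_HDM library lay below every KO_saline library (log2 fold change -2.41 ± 0.23, adjusted p = 1.47e-07). Scgb1a1, the main club cell secretion, fell from 19813 ± 3898 to 5546 ± 1750.0 CPM (-1.84), and Gstm1, a glutathione transferase, from 386 ± 82.9 to 97.1 ± 9.705 CPM (-1.99). Cyp1a1, the target of the aryl hydrocarbon receptor, measured 3.25, 8.41, 202, 3.26 and 3.28 CPM under saline and 0.3201, 0.682, 0.875, 0.331 and 0.431 CPM under HDM. Its fall of -6.35 on the log2 scale rested largely on KO_saline 3 and was -3.04 without that library. It was not called with limma voom (-4.14, adjusted p = 0.0578). Reg3g, an antimicrobial lectin, was the club cell list's member that rose, by 4.33, or 3.27 without KO_HDM 5.

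Alveolar type 1 genes fell for 15 of 19, among them Hopx (456 ± 42.4 to 205 ± 47.4 CPM, log2 fold change -1.15) and Akap5 (-1.37). Of 23 type 2 and surfactant genes 5 fell and 4 rose, near or below the background, and 3 fell without KO_saline 1, KO_saline 3, KO_saline 5 or KO_HDM 5. With only the 10 libraries compared 9 fell, in a fit that called 4511 genes lower over all genes tested. The surfactant proteins split by kind. Sftpb, a hydrophobic surfactant protein, measured 2602, 3142, 3732, 2566 and 3082 CPM in KO_saline and 1216, 1507, 1573, 1214 and 914 CPM in KO_HDM (-1.24 ± 0.23), and Sftpc, the other hydrophobic one, fell by 0.84. Sftpd, a collectin that binds microbes, measured 608, 732, 914, 608 and 768 CPM under saline and 1169.5, 1597, 1382, 1397 and 1078 CPM under HDM and rose (0.87 ± 0.18). Ciliated cell genes fell for 11 of 22, led by Tppp3, a microtubule protein (288 ± 34.9 to 99.4 ± 10.3 CPM, -1.53), and rose for 1. Mesothelial genes fell for 9 of 11, led by Upk3b (-2.03).

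Genes of endothelium fell for 32 of 46 tested. Of 14 genes shared by endothelium as a whole 13 fell, and of 13 capillary genes 11. Of 19 arterial, venous and lymphatic genes 8 fell and 2 rose, with a median of -0.32. Cdh5, the cadherin of endothelial junctions, measured 1265, 1263, 1147, 1154 and 1215 CPM in KO_saline and 487, 636, 709, 540.4 and 304 CPM in KO_HDM, with no overlap (log2 fold change -1.17 ± 0.21, adjusted p = 1.60e-04). Kdr, the main receptor for vascular endothelial growth factor, fell by 1.32 and its ligand gene Vegfa by 1.04, while Epas1, a hypoxia-inducible factor of endothelium, fell from 4084 ± 278 to 1886 ± 421 CPM (-1.11). Plvap, of the diaphragms of fenestrae and caveolae, fell by 1.61. Ackr1, the chemokine carrier of venules, rose from 0.725 ± 0.379 to 2.94 ± 0.649 CPM (2.002), as did Vcam1, an adhesion molecule for leukocytes (0.44). Platelet and megakaryocyte genes fell for 11 of 15, led by Gp6, a collagen receptor (-2.397), and Tubb1, the platelet tubulin (-2.05). Pf4, a platelet chemokine that macrophages also express, rose (1.92). Red blood cell markers, given with the library checks, fell with them.

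Developmental signalling pathways shared the direction of endothelium and fibroblasts. Of 56 genes of Wnt, BMP, Notch and Hedgehog signalling 36 fell and 4 rose. Bmp6, a ligand of endothelial BMP receptors, measured 135, 126, 109.6, 129.8 and 118 CPM under saline and 36.4, 43.98, 49.3, 28.3 and 24.02 CPM under HDM (-1.76 ± 0.23). The endothelial receptors Eng (-1.62) and Acvrl1 (-1.38) and the inhibitory target Smad6 (-1.48) fell with it. Wnt2, a fibroblast ligand, fell from 17.2 ± 2.89 to 4.45 ± 1.49 CPM (-1.94) and Axin2, a target of the pathway, by 0.95. Inhba, the activin A subunit, was the largest rise of this group, from 0.834 ± 0.244 to 7.68 ± 3.04 CPM (3.19), and Sfrp1, a Wnt antagonist, rose by 1.504.

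Receptors of airway tone stood near the background, with 5 of 16 higher and 4 lower. Tacr1, the receptor for substance P, rose from 2.58 ± 1.08 to 10.9 ± 5.36 CPM (2.08), and Cysltr1, a receptor for cysteinyl leukotrienes, from 5.01 ± 0.929 to 10.8 ± 1.72 CPM (1.11). Over the whole list of smooth muscle, pericyte and tone genes 11 of 38 fell, 7 without KO_saline 1, and 21 in a fit added after the data were seen that left out the 5 libraries of the study with Adipoq, a fat marker, at 50 CPM or more.

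Enzymes of lipid mediators, the pathway to which Alox15 belongs, showed no common direction: 21 of 61 rose and 14 fell. Among lipoxygenases, Alox12, the platelet enzyme, fell from 14.1 ± 3.88 to 4.51 ± 0.774 CPM (-1.64) and Alox5, which starts leukotriene synthesis, from 15.1 ± 2.03 to 10.1 ± 2.395 CPM (-0.58), whereas its activating protein gene Alox5ap rose (0.83). Alox12e, an epidermal lipoxygenase, measured 0, 0.235, 0.04399, 0.0435 and 0.137 CPM in KO_saline and 2.19, 0.828, 0.875, 1.43 and 5.49 CPM in KO_HDM. It rose by 4.47 ± 0.94, by 5.15 without KO_saline 2 and by 3.77 without KO_HDM 5. Hpgds, the haematopoietic synthase of prostaglandin D2, rose from 3.06 ± 0.562 to 16.1 ± 2.58 CPM (2.39), and Hpgd, the enzyme that inactivates prostaglandins, fell from 395 ± 57.6 to 210.1 ± 84.4 CPM (-0.91). Pla2g7, a phospholipase of platelet-activating factor, rose by 2.23.

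Defence against lipid peroxides, in which 15-lipoxygenase products are handled, fell for 9 of 17 genes and rose for 3. Gpx4, the peroxidase that reduces lipid hydroperoxides, measured 147, 225, 234, 169 and 182 CPM under saline and 134, 130.4, 114, 105 and 141 CPM under HDM (-0.61 ± 0.16). Prdx6, a peroxiredoxin of lung epithelium, fell by 1.25. Slc7a11, the cystine importer, went the other way and rose from 8.19 ± 4.06 to 43.7 ± 11.3 CPM (2.41). Acsl4, which loads polyunsaturated fatty acids into phospholipids and so serves the substrates of peroxidation, not the defence, rose by 0.78. Subunits of the mitochondrial respiratory chain, by contrast, were called for 1 of 20, far below the background of 51.9%.

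Whether the response differed from that of wild-type lung was tested as the difference of the differences, which share no library. The interaction was called for 200 genes (1.24%), 162 with a higher log2 fold change in knockout-labelled lung (1%) and 38 with a lower one (0.235%). That count fell to between 79 without KO_HDM 4 and 130 without KO_saline 5 where leaving out a library (KO_saline 2, KO_saline 3, KO_saline 5, KO_HDM 3, KO_HDM 4, WT_saline 1 or WT_HDM 4) moved it by more than 1.5 times, and to 103 without the 5 libraries with high Adipoq. Those 5 are KO_HDM 5, WT_saline 2, WT_saline 4, WT_HDM 2 and WT_HDM 4, so both wild-type groups were smaller in that fit. DESeq2 gave 608 interaction calls. In wild-type lung 4866 genes (30.1%) were called, 2198 higher (13.6%) and 2668 lower (16.5%), against 26.2% and 25.7% in knockout-labelled lung. The wild-type count was 2854 when its 10 libraries were fitted alone. The 54 lists have 31 interaction calls among 1231 members tested, and 30 lists have none. Interferon genes rose for 28 of 47 in knockout-labelled lung and for 3 of 47 in wild-type lung, with median log2 fold changes of 0.49 and -0.03, but the difference was called for only 2 of them, the guanylate-binding protein genes Gbp3 (1.07 ± 0.23) and Gbp6 (1.39 ± 0.29). Gbp3 lost that call without KO_HDM 4 (adjusted p = 0.0641), KO_saline 2 (0.0537), WT_saline 1 (0.0667) or WT_HDM 4 (0.06002), and both genes lost it without the 5 libraries with high Adipoq (0.0616 and 0.0521). The class I list rose for 14 of 19 against 0 of 19, with no interaction call. Mesothelial genes fell for 9 of 11 against 2 of 11, the latter near the wild-type background, with 1 interaction call.

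**Figure D4:**
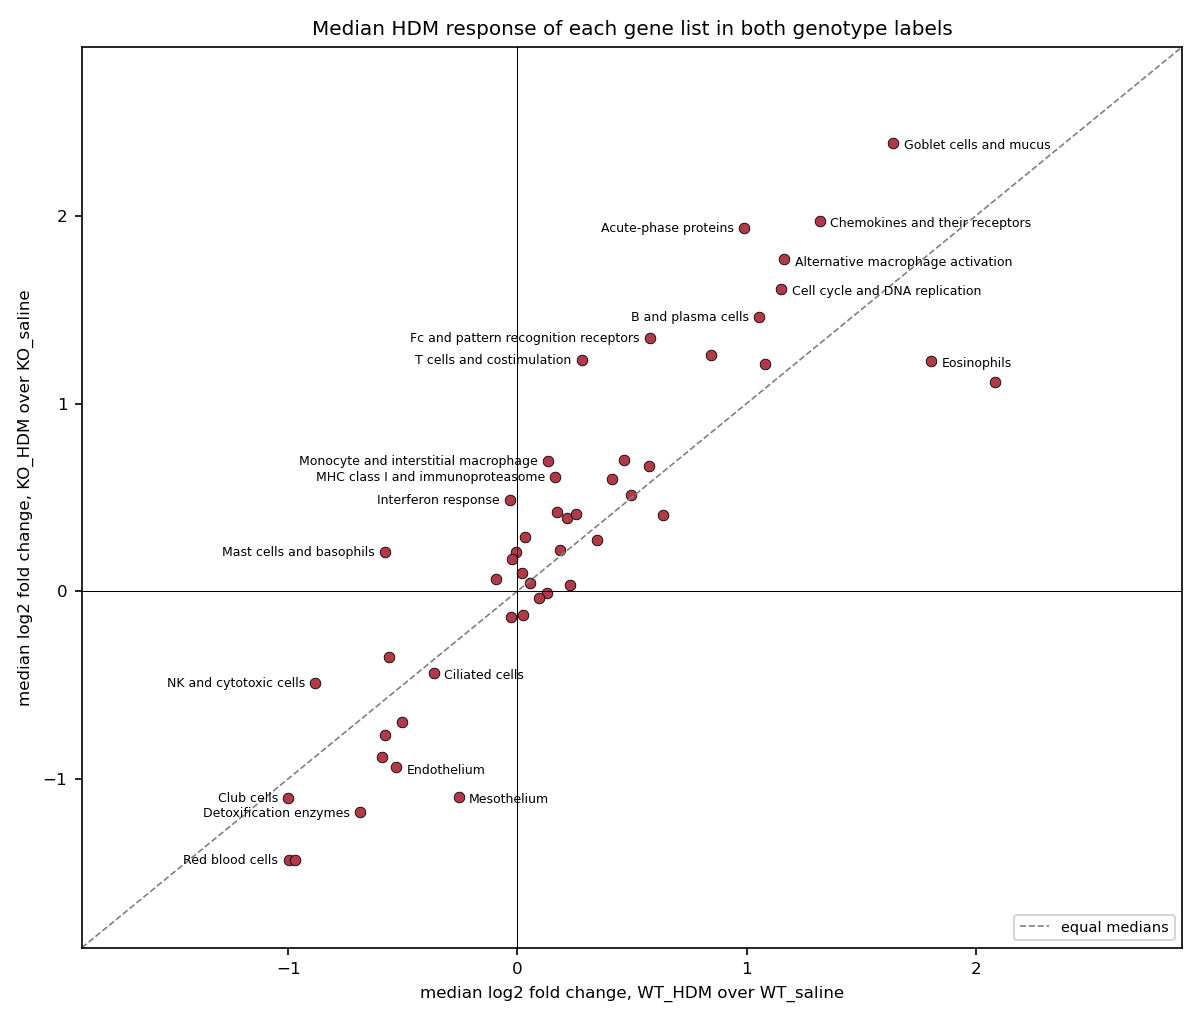
Median log2 fold change of each list with at least 5 tested members, KO_HDM over KO_saline (vertical axis) against WT_HDM over WT_saline (horizontal axis); the dashed line marks equal medians. Most lists with raised medians lie above the line; interferon genes lie at -0.03 in wild-type and 0.49 in knockout-labelled lung, and eosinophil genes below the line at 1.81 and 1.23.

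The interactions described next are the largest among genes with a mean log2 CPM of 1 or more. Below that level liver-made genes had larger ones: 5 of 16 were called, all higher in knockout-labelled lung, among them Alb (8.66 ± 0.71). Gbp10, an interferon-induced guanylate-binding protein of a multigene family, measured 1.44, 1.31, 1.89, 1.52 and 0.729 CPM in KO_saline and 4.21, 9.89, 8.99, 18.6 and 8.89 CPM in KO_HDM, and 2.03 to 4.32 CPM in WT_saline and 1.65 to 4.47 CPM in WT_HDM. It rose by 2.87 in knockout-labelled lung against a log2 difference of 0.12 in wild type, an interaction of 2.74 ± 0.498 (adjusted p = 0.0108). Fpr2, a formyl peptide receptor that also reads lipoxins, measured 3.68, 5.12, 3.61, 3.52 and 5.01 CPM in KO_saline and 24.96, 48.6, 34.9, 32.96 and 23.5 CPM in KO_HDM (interaction 2.31 ± 0.42, adjusted p = 0.0108). Aoah, which inactivates endotoxin, rose by 3.01 against 1.08 (1.93 ± 0.31). Gpr141, an orphan receptor, rose by 0.91 where wild-type lung showed -0.95 (adjusted p = 0.00757). Fcgr1 (1.81), Slfn8 (1.61), Emr1, the macrophage marker F4/80 (1.61), Cd200r4 (1.58), Cubn (1.55) and Klra2 (1.55) complete the 10 largest of that direction at that level. Klra2, Slfn8, Cubn and Cd200r4 lost the call without KO_HDM 4 (adjusted p 0.0796, 0.0642, 0.0642 and 0.0642) and without KO_saline 2 (0.0624, 0.0554, 0.0522 and 0.0537). Klra2, Slfn8 and Cubn lost it without KO_saline 3 (0.0612, 0.0539 and 0.0504), and Klra2 and Slfn8 without KO_saline 5 (0.0537 and 0.0521) or WT_saline 1 (0.0557 and 0.0524). Klra2 also lost it without KO_HDM 2 (0.0657) or KO_HDM 3 (0.0583). Without the 5 libraries with Adipoq at 50 CPM or more, Gbp10 (0.0535), Slfn8 (0.0535) and Cubn (0.0923) were not called.

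In the other direction, Lgals2, a galectin of epithelium and monocytes, measured 4.35, 3.62, 7.48, 4.09 and 4.92 CPM in KO_saline and 1.17, 0.925, 0.972, 0.716 and 0.7001 CPM in KO_HDM, against 1.14 to 3.58 CPM in WT_saline and 1.602 to 2.87 CPM in WT_HDM. The interaction was -2.28 ± 0.38 (adjusted p = 0.00809). Mmp12 rose under both labels, by 4.91 and 6.99, with an interaction of -2.08 ± 0.37 (adjusted p = 0.0103; 0.0811 without the 5 libraries with high Adipoq). Clock genes took 2 of the 10 places: Nr1d1 (REV-ERB alpha), a repressor within the clock, measured 245, 282, 236, 207 and 208 CPM in KO_saline and 67.5, 80.7, 83.7, 72.3 and 68.4 CPM in KO_HDM, and 87.9 to 142 CPM in WT_saline and 62.1 to 135 CPM in WT_HDM (interaction -1.34 ± 0.24). Dbp, an output of the clock, was not called within knockout-labelled lung (76.98 ± 22.4 to 59.4 ± 7.77 CPM, -0.37, adjusted p = 0.177). In wild-type lung Dbp rose from 19.7 ± 6.5 to 46.5 ± 12.4 CPM (1.24, edgeR adjusted p = 6.89e-04). Its interaction was -1.61 ± 0.32. The hour of collection is not given in the sources used here, and its part in these genes was not tested. Map3k6 (-1.63), P2rx1 (-1.59), Myrip (-1.56), Klhl29 (-1.52), Clec1b (-1.43) and Atp6v0a4 (-1.38) complete that set. Map3k6 was not called without KO_HDM 4 (adjusted p = 0.0668), WT_saline 1 (0.0557) or WT_HDM 4 (0.0535), and Dbp not without KO_HDM 4 (0.0525). Without the 5 libraries with high Adipoq, Map3k6 (0.133), Dbp (0.0928), Myrip (0.0688) and Nr1d1 (0.0616) were not called either.

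**Figure D5:**
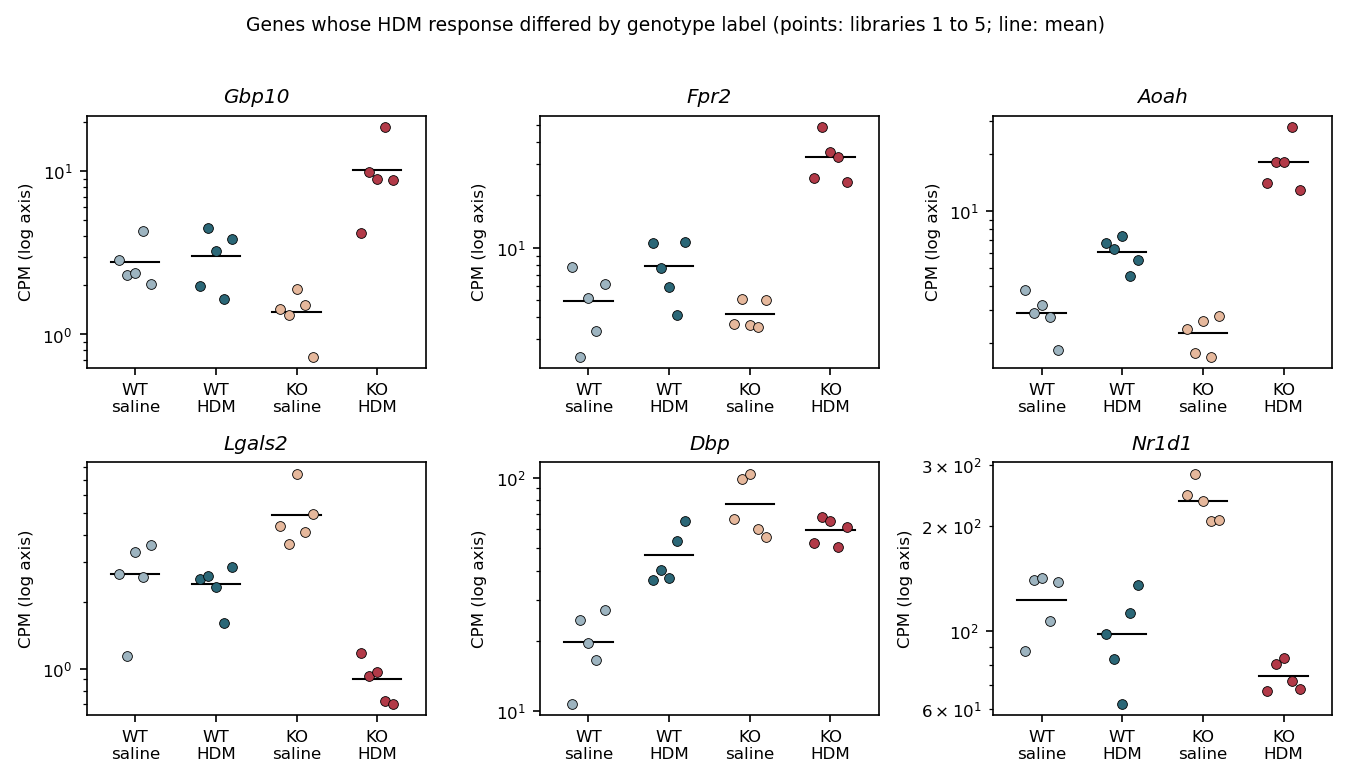
Level of 6 genes with an interaction call in all 20 libraries, in CPM on a log axis, by genotype label and treatment (points, libraries 1 to 5; line, mean). Gbp10, Fpr2 and Aoah are higher in KO_HDM than in KO_saline with a smaller difference in wild type, and Lgals2, Dbp and Nr1d1 have lower responses in knockout-labelled lung.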

How the data were processed

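Alignment by the authors used Bowtie2 2.1.0 and quantification used RSEM 1.2.15, per the submitters' processing notes. What the authors deposited are RSEM expected counts for each gene in each library, before any normalization, under mouse gene symbols. The genome build named in the notes is hg38, a human build, so the build used is not known and no coordinates are taken from the files. RSEM divides reads that match several genes, so members of multigene families (Chil3 and Chil4, ribonucleases, urinary proteins, guanylate-binding proteins, mast cell proteases, Tgtp1) cannot be trusted singly.

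Expected counts were rounded, filtered with edgeR's filterByExpr by group (16193 of 24054 genes kept) and scaled with TMM factors. The robust quasi-likelihood F test of edgeR 4.0.16 (R 4.3.3) was fitted to all 20 libraries with a mean for each of the 4 groups and 16 residual degrees of freedom. P-values were adjusted by Benjamini-Hochberg over all genes tested, and an adjusted p under 0.05 is a call. Values after ± are SDs of CPM (n = 5) or standard errors of log2 fold changes. Alox15 was also tested by exact permutation of log2 CPM (prior count 2). The labels call the replicates biological and say no more, so p-values measure the spread between these samples.

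The members and the 54 gene lists were chosen with earlier results of these data known, so lists are described by counts and medians only. Genes named are Alox15, the 15 largest rises and 15 largest falls (called, without overlap, at a mean log2 CPM of 1 or more, predicted genes and receptor segments left out), members of the lists, chiefly the largest changes called, and the 10 largest interactions in each direction at the same level. A few members are not reported here. Xist was chosen after its values were seen. The fit was tested on simulated data with 200 changed genes among 15683. It recovered 76% of the 2-fold and 90% of the 4-fold changes, with 6.74% false among its 178 calls. The share of false calls where as many genes change as the 8406 called in knockout-labelled lung was not tested. Alternatives were RLE and upper-quartile factors, other low-count filters, DESeq2 1.42.0, limma 3.58.1 voom, only the 10 libraries compared, a replicate block, a stricter threshold, a test against a fold of 1.5, leaving out each library and, added after the data were seen, leaving out the 5 libraries with Adipoq at 50 CPM or more. KO_HDM 5 is the only knockout-labelled library of those 5, and the others are WT_saline 2, WT_saline 4, WT_HDM 2 and WT_HDM 4. Promoter windows are RefSeq's, GRCm38.p6.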

Additional observations from a re-analysis of the deposited data

Results flagged for a closer look

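For the genes named in the text, each group of 5 knockout-labelled libraries was searched for a library set apart on the log2 scale, with a gap to its neighbour over 0.71 of the group's range. Of 452 pairs of gene and group 26 met this, where chance gives about 1 in 20 groups. KO_HDM 4 was the highest of its group for 6 genes: Dcstamp (11.5 CPM), Msr1 (81.4 CPM), Pla2g7 (164 CPM), Slc7a11 (63.4 CPM), Timp1 (56.1 CPM) and Slfn8 (27.3 CPM). KO_HDM 1 was the lowest for the liver-made Alb (20.1 CPM), Fgb (0.960 CPM) and Ttr (1.33 CPM). KO_HDM 5 was the highest for F3 (47.2 CPM), Galnt15 (8.72 CPM) and Upk3b (28.3 CPM), and the lowest for Vcam1 (107.6 CPM), and KO_HDM 2 was the highest for Xcr1 (29.5 CPM).

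Among saline libraries, KO_saline 4, with its markers of lymph node, was the highest for Cd3e (20.5 CPM), Icos (7.56 CPM) and Pou2af1 (29.6 CPM). KO_saline 3 was the highest for Cyp1a1 (202 CPM), Gzma (27.1 CPM) and Plvap (515 CPM). KO_saline 2 was the highest for Epas1 (4569 CPM) and Slc7a2 (98.7 CPM) and the lowest for Gpr141 (4.74 CPM) and Tnc (15.7 CPM). KO_saline 5 was the highest for Ccl9 (26.02 CPM) and KO_saline 1 the lowest for Clec7a (35.6 CPM).

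The response differed between genotype labels, by the interaction test, for 25 of the genes named. The log2 response was higher in knockout-labelled lung for Alb (8.66; 9.32 without WT_HDM 2), Gbp10 (2.74), Fpr2 (2.31), Aoah (1.93), Gpr141 (1.86), Fcgr1 (1.81), Slfn8 (1.61), Emr1 (1.61), Cd200r4 (1.58), Cubn (1.55), Klra2 (1.55), Gbp6 (1.39), Ctss (1.10) and Gbp3 (1.07). It was lower for Lgals2 (-2.28), Mmp12 (-2.08), Map3k6 (-1.63), Dbp (-1.61), P2rx1 (-1.59), Myrip (-1.56), Klhl29 (-1.52), Clec1b (-1.43), Atp6v0a4 (-1.38), Nr1d1 (-1.34) and Igfbp6 (-1.28). Ctss lost this call without KO_HDM 4 (adjusted p = 0.0547), and Igfbp6 without KO_HDM 4 (0.0641) or WT_saline 1 (0.0531), and both without the 5 libraries with high Adipoq (0.0618 and 0.118).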

How the results depend on the processing

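Of the values recomputed for the main comparisons, nearly all counts of genes, 227 stayed within 1.5 times the count reported or, for Alox15, kept their sign without a call, 24 were lower by more, 8 higher by more and 6 (Alox15) changed sign. With only its 10 libraries fitted, the knockout-labelled comparison had 9244 calls. Against a fold of 1.5, 2321 genes were called in knockout-labelled lung, 1503 higher and 818 lower. Leaving out each library in turn gave 7614 to 8123 calls there, 3659 to 4584 higher and 3360 to 4310 lower. At an adjusted p under 0.01 the count was 6353. Fitted to its own 10 libraries alone, the wild-type comparison had 2854 calls. The count of interactions moved by more than 1.5-fold under several settings. DESeq2 gave 608 calls (459 higher, 149 lower), leaving out single libraries 79 to 260 (60 to 194 higher, 19 to 66 lower), and leaving out the 5 libraries with Adipoq at 50 CPM or more 103 (82 higher, 21 lower). Upper-quartile factors gave 58 lower. The cause was not tested.

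Alox15, never called, changed sign with upper-quartile factors (-0.0056), with the replicate block (-0.019) and when KO_HDM 1, 2, 3 or 4 was left out (-0.0692 to 0.0856 over single libraries). Same-numbered libraries deviated together in some pairs only (correlations 0.128, -0.105, 0.312, -0.0831 and 0.301). These mixed values do not settle whether the numbers pair the libraries, and the labels do not say. With the replicate block 8584 genes were called in knockout-labelled lung and the interaction had 246 calls, 62 lower. Scaling moved the median log2 fold change of all genes between 0.0035 and 0.0241. Depth limits transcripts of a few counts per library, such as Il13, Il4 and Ifng.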

Other observations

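Of 11 tested genes of tryptophan breakdown and serine synthesis 7 rose and none fell, against 26.2% of all genes higher. Kynu, which cleaves kynurenine, measured 5.02, 4.602, 4.49, 6.52 and 3.87 CPM in KO_saline and 25.1, 24.1, 17.6, 21.7 and 21.8 CPM in KO_HDM without overlap (log2 fold change 2.17 ± 0.22), and Kmo, which hydroxylates it, rose by 1.36. Phgdh (1.16) and Psat1 (1.197), successive enzymes of serine synthesis, rose side by side. For arginine, both the uptake carrier Slc7a2 (1.87) and Nos2, the inducible nitric oxide synthase (6.11 ± 2.096 to 16.3 ± 6.4 CPM, 1.41), rose beside Arg1. Of 17 glycolysis genes 5 rose, near the background, but 9 rose with only the 10 libraries compared and 8 without the 5 libraries with high Adipoq. Fbp1, an enzyme of glucose synthesis, measured 0.335, 0.657, 0.528, 0.435 and 0.365 CPM under saline and 3.25, 6.09, 9.58, 2.48 and 14.3 CPM under HDM (3.92 ± 0.47), and the myeloid hexokinase Hk3 rose from 6.17 ± 0.972 to 25.9 ± 8.36 CPM (2.07).

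The list of rare airway cells had few members above the limit for testing. Dclk1, a kinase that marks tuft cells and is expressed in other lung cells too, measured 13.6, 10.1, 15.4, 20.3 and 16.6 CPM in KO_saline and 50.2, 56.3, 60.6, 66.5 and 55.6 CPM in KO_HDM without overlap (1.93 ± 0.22). Of iron genes, 7 of 13 rose, among them the transferrin receptor Tfrc (93.7 ± 10.4 to 208 ± 33.7 CPM, 1.15) and the metalloreductase Steap4 (1.84). Of 18 clock genes 5 rose and 5 fell, near the background, and 3 rose without KO_HDM 2 or KO_HDM 3. Arntl (BMAL1) fell from 14.8 ± 3.46 to 7.78 ± 1.43 CPM (-0.93). Bhlhe40, a repressor that immune cells induce, rose from 76.95 ± 10.6 to 130.0 ± 14.4 CPM (0.76).

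Xist, the RNA that coats the inactive X chromosome and was looked at only to check that the mice were female, was chosen after its values were seen. It measured 1006, 584, 554, 875 and 740.4 CPM in KO_saline and 2798, 1856, 2025, 2199 and 2247 CPM in KO_HDM. All 10 libraries held it, the groups did not overlap, and it rose by 1.57 ± 0.26 on the log2 scale (edgeR adjusted p = 6.84e-05). In wild-type lung the difference was 0.87 (adjusted p = 0.0157), with 766 to 2418 CPM in WT_saline and 1871 to 3053 CPM in WT_HDM, and the interaction was 0.69 ± 0.36 (adjusted p = 0.359). A cause was not tested.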
